A study of Mus musculus with 14 samples.

Results

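The 83 genes described here encode the proteins of the cytosolic ribosome, the particle that translates nuclear-encoded mRNA. They were taken from the 55471 gene rows of the deposited count table by symbol: protein-coding rows named Rpl or Rps with a number, together with Rpsa, Rplp0, Rplp1, Rplp2 and Fau. The rule leaves out 20 protein-coding rows with similar symbols, among them 10 Rps6k kinase genes, 6 rows named as pseudogenes and the paralogues Rpl22l1, Rpl7l1 and Rpl39l. Of the 83 members, 34 encode small-subunit and 49 large-subunit proteins. The filter on low counts kept 81 of them among 15949 tested genes. The other 2 were Rpl10l, with 0 counts, and Rpl36al, with 85 counts over the 14 libraries.

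Each ribosome holds one copy of most of these proteins, with the acidic stalk proteins Rplp1 and Rplp2 as the known exception, so cells make them in matched amounts. Their mRNAs are abundant, short and stable. Many carry a terminal oligopyrimidine (TOP) tract, a cytosine at the cap followed by a run of pyrimidines, through which the kinase mTORC1 and the RNA-binding protein Larp1 control their translation. Brown adipose tissue (BAT) burns fat to make heat, and in the cold it turns on transcription of thermogenic genes.

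The tissue was BAT of 10 week old male mice, either wild type (WT) or with Clstn3b removed in adipocytes only (AdC3KO). All mice were first kept at thermoneutrality, 30 °C, for 2 weeks. WT and AdC3KO mice sampled at 30 °C gave 3 libraries each, and mice moved to 4 °C for 6 h gave 4 libraries of each genotype. The sources used here do not give the driver of the deletion. Whether a library stands for 1 animal is not stated in the labels, and the p-values describe library-to-library spread, which may be partly technical.

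The stretch around the transcription start is shown first, because the TOP tract is the sequence feature that many of these mRNAs are known for. The members printed include some with large and some with small cold differences, with and without such a tract at the annotated start. Each line is a window of 10 bases before the RefSeq start (GRCm38.p6) and 20 bases from it. Capitals mark an unbroken run of C and T that begins with C at the annotated start. Windows without capitals have no such run of 5 or more bases.
Rps6: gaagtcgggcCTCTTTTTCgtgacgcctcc
Rps15a: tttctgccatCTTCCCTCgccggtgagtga
Rpl4: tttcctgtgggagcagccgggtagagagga
Rpl10: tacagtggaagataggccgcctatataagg
Fau: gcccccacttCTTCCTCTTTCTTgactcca
Rps21: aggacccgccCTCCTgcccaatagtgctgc
Rps27l: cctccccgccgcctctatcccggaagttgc
Rpl3l: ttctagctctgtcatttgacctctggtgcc
The windows lie at chr4:86857348-86857377 (minus strand, Rps6), chr7:118116128-118116157 (minus, Rps15a), chr9:64173377-64173406 (plus, Rpl4), chrX:74270806-74270835 (plus, Rpl10), chr19:6057937-6057966 (plus, Fau), chr2:180257369-180257398 (plus, Rps21), chr9:66946076-66946105 (plus, Rps27l) and chr17:24727816-24727845 (plus, Rpl3l). The run is 9 bases long in Rps6, 8 in Rps15a, 13 in Fau and 5 in Rps21. Rps6 and Rps15a, with a run, and Rpl4 and Rpl10, without one, were among the members with the largest cold differences. Rps21 had one of the smallest, and another RefSeq start of Rps21 has no run. Rps27l and Rpl3l, also without one, are alternative forms of Rps27 and Rpl3.

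RefSeq promoters matched 61 of the 81 tested members. A run of 5 or more pyrimidines that begins with C exactly at the annotated start was present in 15 of the 61 (24.6%), against 3.01% of all 27025 genes with a promoter and 3.11% of the 11301 tested ones. Allowing the run to begin within 5 bases of the start raised this to 30 of 61 (49.2%), against 21.2% of all genes and 23.9% of tested ones. The annotated start is often a few bases from the true cap, so these shares describe the annotation and do not count TOP mRNAs. In the 300 bases around the start, searched on both strands, the core of the CRE site TGACG was in 52.5% of members and 33.7% of tested genes, the ETS-type site CCGGAAG in 41.0% and 18.8%, the GC box GGGCGG in 60.7% and 65.8%, and TATAAA in 9.84% and 9.28%.

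Libraries held 19.9 M to 29.0 M gene counts (M, counts in units of 1e6). The targeted locus Clstn3 ranged from 182 to 228 CPM (counts in a library scaled to 1e6) in WT and from 14.8 to 17.3 in AdC3KO at 30 °C, and from 970 to 1195 and from 53.9 to 77.9 at 4 °C, so the genotypes did not overlap. Summed markers of brown adipocytes ranged from 9802 to 13170 CPM at 30 °C and from 23180 to 32780 CPM at 4 °C. The 6 genes behind this sum did not move one way: 3 were higher and 2 lower in WT, and 3 and 1 in AdC3KO. Ucp1, the uncoupling protein of heat production, had a log2 fold change of 2.96 in WT, and Adipoq, an adipocyte hormone, one of −0.64. Summed markers of skeletal muscle, a neighbouring tissue, ranged from 31.4 to 427 CPM in 5 libraries and from 0.99 to 3.24 CPM in the other 9. The 5 libraries were WT at 30 °C replicate 3, AdC3KO at 30 °C replicates 1 and 2, WT at 4 °C replicate 2 and AdC3KO at 4 °C replicate 3.

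Ribosomal protein transcripts took up a small and steady part of each library. They made up 1.53 ± 0.098% of gene counts in WT at 30 °C and 1.58 ± 0.20% in AdC3KO at 30 °C (SD, n = 3 each), and 1.65 ± 0.12% and 1.72 ± 0.083% at 4 °C (SD, n = 4 each). The ranges of the groups overlapped, from 1.42% to 1.60% and from 1.36% to 1.75% at 30 °C, and from 1.49% to 1.78% and from 1.62% to 1.81% at 4 °C. Genes of the mitochondrial genome held 23.7% and 24.0% of gene counts in WT and AdC3KO at 30 °C, and 20.5% and 22.3% at 4 °C. Of the nuclear counts alone, the members made up 2.01 ± 0.18% and 2.08 ± 0.25% at 30 °C (SD). At 4 °C they made up 2.08 ± 0.17% and 2.21 ± 0.13%. How the libraries are scaled to each other therefore bears on every cold difference given here.

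In WT mice, 6 h at 4 °C was accompanied by higher relative levels of most ribosomal protein transcripts. With TMM scaling, which assumes that most genes do not change, 54 of 81 members were higher at 4 °C and 0 were lower in edgeR's quasi-likelihood test with Benjamini-Hochberg adjustment over all tested genes. Of all tested genes, 30.6% were called higher and 30.8% lower. The median log2 fold change was 0.42 for the members and −0.03 for all genes, and 80 of 81 members had a positive value. In 51 members every 4 °C library was above every 30 °C library, as in 29.9% of all genes. A change in the share of a cell type and a change in its RNA per cell cannot be told apart in bulk tissue. Members move together from library to library, so these counts are not 81 separate pieces of evidence.

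The size of the members' median difference, the number of calls and the number of positive members rested on the scaling. With upper-quartile scaling 23 members were called higher and 0 lower in WT, with 67 of 81 positive. With library totals alone, 14 were called higher and 2 lower (Rpl3l and Rps27l), and 49 of 81 were positive. The median of all tested genes moved from −0.03 with TMM to −0.27 and −0.38 under these scalings. All-gene calls moved with it, from 30.6% higher and 30.8% lower to 22.8% and 40.2% with upper-quartile scaling and to 19.4% and 44.0% with library totals, where the share of members called higher was no longer above that of all genes. Relative to the median gene, the members' median stood 0.45 higher with TMM, and the members' own median was 0.42 with TMM, 0.18 with upper-quartile scaling and 0.07 with library totals.

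**Figure D1:**
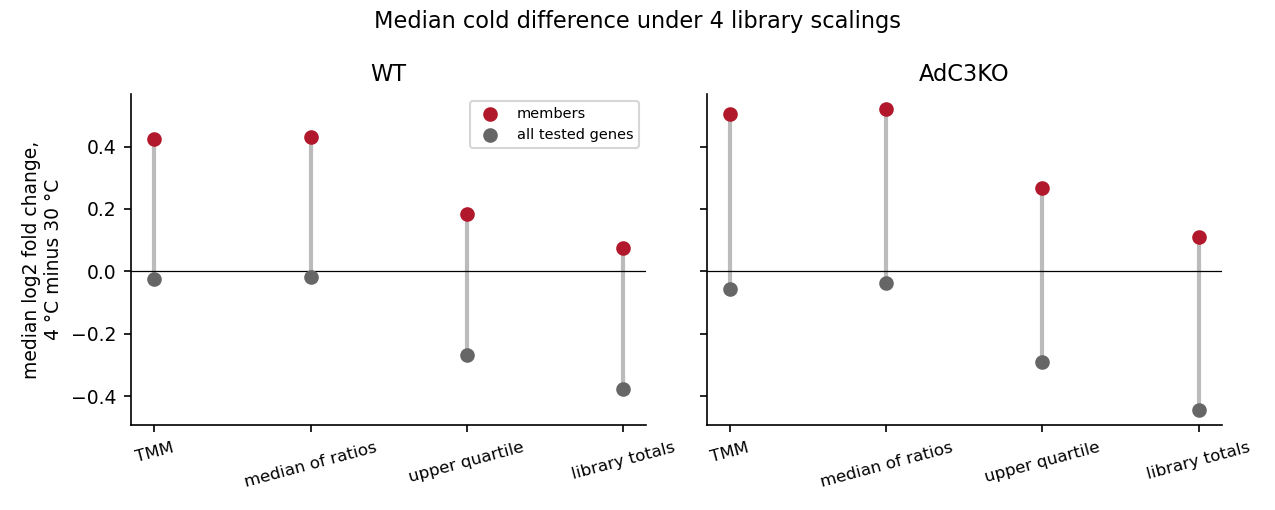
Median log2 fold change between 4 °C and 30 °C (vertical axis) in WT (left) and AdC3KO (right) under 4 library scalings (horizontal axis), for the 81 tested members (red) and all tested genes (grey), with a grey line joining each pair. Both medians move down together from TMM to library totals, in WT from 0.42 to 0.07 for the members and from −0.03 to −0.38 for all genes. The distance between them changes little, because a change of scaling shifts all genes by nearly the same amount.

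Of the 81 members, 13 were called higher at 4 °C in both genotypes under TMM, upper-quartile scaling and library totals alike. That is 16.0% of the members, and 16.9% of all tested genes met the same criterion, so the count does not set the members apart. They were Rpl3, Rpl4, Rpl6, Rpl7a, Rpl9, Rpl10, Rpl10a, Rpl34, Rps6, Rps9, Rps13, Rps15a and Rps27a. In WT the call also held under library totals for Rps27, and in AdC3KO for Rpl37. These members were picked by their calls, so no further test was made of them.

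Rps6, the small-subunit protein that S6 kinases phosphorylate downstream of mTORC1, had the largest called difference in WT. The gene lies on chromosome 4 from 86854660 to 86857412 (minus strand, GRCm38). It measured 153, 183 and 171 CPM in the WT libraries at 30 °C and 383, 310, 301 and 377 CPM at 4 °C. Every cold library was well above every warm one. The level was 2.03-fold higher (log2 fold change 1.02, SE 0.12, adjusted p = 1.87e-06). In AdC3KO, Rps6 measured 148, 190 and 181 CPM at 30 °C and 351, 316, 389 and 327 CPM at 4 °C, again without overlap, and was 1.99-fold higher (0.996, SE 0.12, adjusted p = 2.26e-06).

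Rpl4, a large-subunit protein with a loop that reaches the peptide exit tunnel, measured 268, 295 and 303 CPM in WT at 30 °C and 549, 492, 456 and 505 CPM at 4 °C. The groups were far apart, and the log2 fold change reached 0.79 (SE 0.09, adjusted p = 2.15e-06). In AdC3KO it measured 274, 323 and 307 CPM at 30 °C and 523, 522, 551 and 472 CPM at 4 °C, a log2 fold change of 0.78 (SE 0.09, adjusted p = 2.53e-06). Rpl10, which joins the large subunit late in its cytoplasmic maturation, measured 193, 221 and 206 CPM in WT at 30 °C and 368, 333, 311 and 357 CPM at 4 °C. Its groups did not overlap, and its log2 fold change was 0.73 (SE 0.09) in WT and 0.79 (SE 0.09) in AdC3KO.

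The other leading members had log2 fold changes in WT of 0.80 for Rps15a, 0.77 for Rpl10a, 0.76 for Rpl34, 0.76 for Rps27a and 0.72 for Rpl9, with SEs from 0.11 to 0.13. Rps27a is made as a fusion with ubiquitin, which is cleaved off. It measured 102, 136 and 126 CPM in WT at 30 °C and 236, 199, 183 and 205 CPM at 4 °C, with no overlap. Rpl3, near the catalytic centre of the large subunit, measured 270, 307 and 305 CPM in WT at 30 °C and 541, 422, 424 and 429 CPM at 4 °C. One cold library stood above the other 3, all of which exceeded every warm library, for a log2 fold change of 0.63 (SE 0.13, adjusted p = 0.000529).

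**Figure D2:**
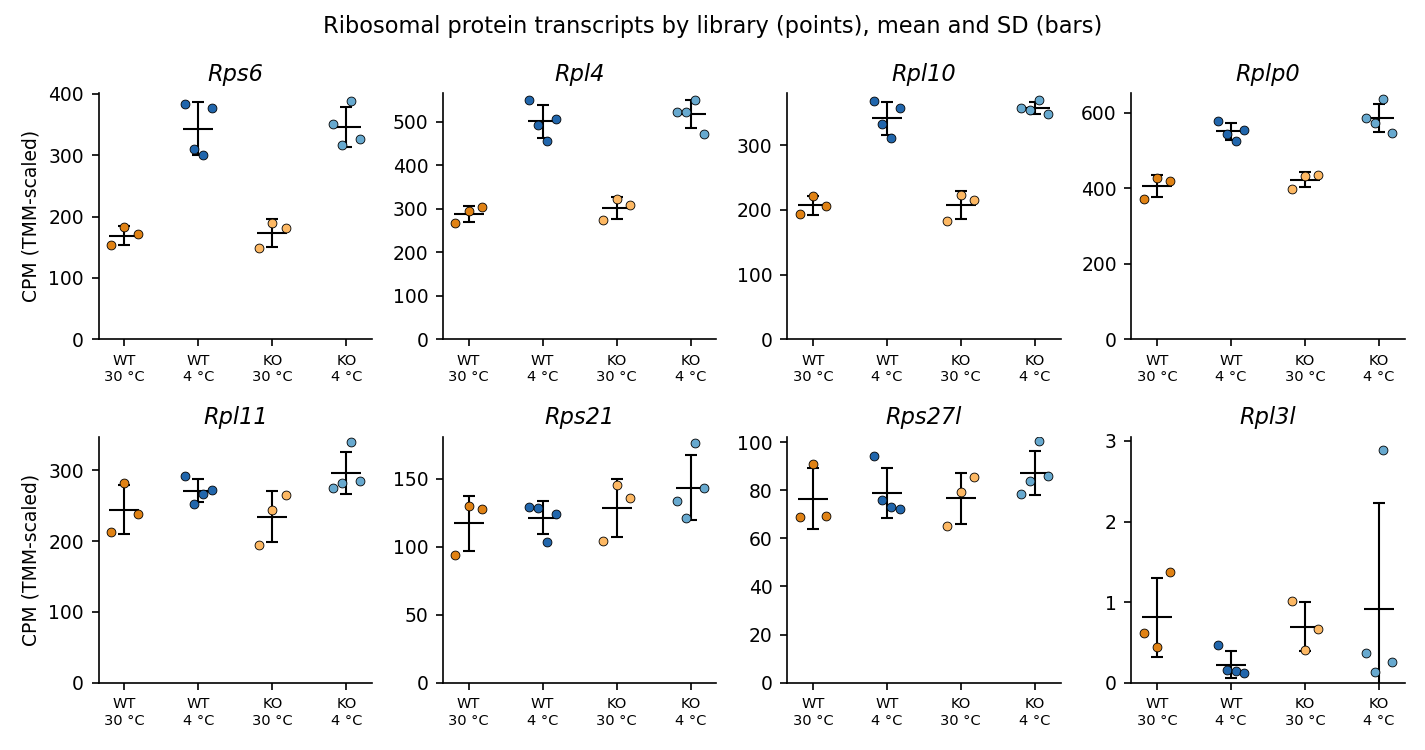
TMM-scaled CPM (vertical axis, from 0) of 8 members in each library (points) of WT and AdC3KO (KO) mice at 30 °C and 4 °C, with the group mean and SD (bars). Rps6, Rpl4, Rpl10 and Rplp0 have no overlap between temperatures in either genotype, while Rps21, Rps27l and Rpl3l overlap in both.

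The stalk proteins recruit elongation factors to the large subunit, with Rplp0 as the base that holds Rplp1 and Rplp2. Rplp0 measured 372, 426 and 419 CPM in WT at 30 °C and 579, 543, 526 and 556 CPM at 4 °C, with no overlap (log2 fold change 0.44, SE 0.09, adjusted p = 0.000333). Rplp1 measured 220, 287 and 251 CPM at 30 °C and 351, 311, 285 and 338 CPM at 4 °C in WT. Its groups overlapped by one library, and its log2 fold change of 0.35 (SE 0.14, adjusted p = 0.036) was −0.0017 with library totals. Rplp2 measured 197, 271 and 287 CPM at 30 °C and 369, 314, 285 and 307 CPM at 4 °C in WT. These overlapped, and its log2 fold change of 0.34 (SE 0.17) did not pass the test (adjusted p = 0.101). In AdC3KO, the log2 fold changes were 0.47 for Rplp0, 0.43 for Rplp1 and 0.37 for Rplp2, of which Rplp2 did not pass (adjusted p = 0.0759).

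Rpl5 and Rpl11 form, with 5S RNA, the particle that binds Mdm2 when ribosome assembly is disturbed. Rpl5 passed the test in WT and Rpl11 did not. Rpl5 measured 161, 200 and 213 CPM in WT at 30 °C and 309, 273, 242 and 263 CPM at 4 °C, with no overlap (log2 fold change 0.50, SE 0.11, adjusted p = 0.00108). Rpl11 measured 213, 282 and 239 CPM at 30 °C and 292, 253, 267 and 273 CPM at 4 °C. The ranges overlapped, with a log2 fold change of 0.15 (SE 0.12, adjusted p = 0.298). In AdC3KO both passed, with 0.53 for Rpl5 and 0.34 (SE 0.12, adjusted p = 0.0224) for Rpl11, although Rpl11 was −0.057 with library totals. Whether Rpl5 and Rpl11 differed from each other was not tested.

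Fau encodes the small-subunit protein eS30 fused to a ubiquitin-like domain, and Rpsa is a small-subunit protein also described as a laminin receptor. Fau measured 104, 130 and 126 CPM in WT at 30 °C and 184, 175, 163 and 206 CPM at 4 °C, with no overlap (log2 fold change 0.60, SE 0.12, adjusted p = 0.000396). Rpsa measured 451, 526 and 521 CPM at 30 °C and 682, 587, 605 and 643 CPM at 4 °C. Its groups did not overlap either, yet its log2 fold change of 0.33 (SE 0.11, adjusted p = 0.0127) was −0.019 with library totals. Rps4x, an X-linked small-subunit protein, had a log2 fold change of 0.28 (SE 0.11, adjusted p = 0.0295) in WT with overlapping libraries, and −0.067 with library totals.

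Among the members that did not pass in either genotype were 12 genes: Rpl23a, Rpl24, Rpl36a, Rpl39, Rpl3l, Rplp2, Rps15, Rps19, Rps21, Rps27l, Rps27rt and Rps29. Rps15 measured 191, 238 and 218 CPM in WT at 30 °C and 259, 231, 224 and 242 CPM at 4 °C. The groups overlapped, and the difference of 0.15 on the log2 scale (SE 0.12) did not pass (adjusted p = 0.278). Rps21, chosen after its values were seen, measured 94.2, 130 and 128 CPM in WT at 30 °C and 129, 129, 104 and 124 CPM at 4 °C. The warm and cold libraries covered nearly the same range, and the log2 fold change was 0.05 (SE 0.15) in WT and 0.16 (SE 0.15) in AdC3KO. A test that is missed does not show that levels were equal.

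The alternative forms are given beside the proteins they are named after. Rps27l, a paralogue of Rps27 that p53 induces, measured 69.0, 91.0 and 69.3 CPM in WT at 30 °C and 94.2, 76.1, 72.9 and 72.2 CPM at 4 °C, with overlap and a log2 fold change of 0.04 (SE 0.13). With library totals it was called lower, at −0.31. Rps27 itself measured 75.2, 107 and 97.1 CPM at 30 °C and 155, 151, 126 and 149 CPM at 4 °C. Its groups did not overlap, and its log2 fold change was 0.64 (SE 0.13, adjusted p = 0.00042) in WT and 0.66 (SE 0.13) in AdC3KO. The difference between Rps27 and Rps27l was not tested. Rps27rt, a retrotransposed copy of Rps27, stayed between 0.29 and 3.59 CPM in all 14 libraries and did not pass in either genotype.

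Rpl3l replaces Rpl3 in striated muscle. It was near the floor of detection, at 0.62, 0.44 and 1.37 CPM in WT at 30 °C and 0.47, 0.16, 0.14 and 0.12 CPM at 4 °C. In AdC3KO it measured 1.01, 0.41 and 0.66 CPM at 30 °C and 0.37, 0.13, 2.88 and 0.25 CPM at 4 °C. The highest library of each 30 °C group and of AdC3KO at 4 °C was the one with the most muscle markers in its group, and the library at 2.88 CPM had 427 CPM of them. In WT at 4 °C it was not: the highest, replicate 1, had 3.24 CPM of muscle markers and replicate 2 had 43.3. The log2 fold change in WT was −1.91 (SE 0.93, adjusted p = 0.091). It was called lower in WT when AdC3KO at 4 °C replicate 3 was left out and when the groups compared were fitted alone, and with library totals (−2.27). The contribution of muscle tissue was not tested.

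Rpl10l, a testis form of Rpl10 without introns, had 0 counts in 336 M gene counts, which allows a level of up to 0.00892 CPM for counting error only. Rpl36al, a form of Rpl36a, measured between 0 and 0.59 CPM. Rpl36a itself had log2 fold changes of 0.22 (SE 0.13) in WT and 0.27 (SE 0.13) in AdC3KO and passed in neither.

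In AdC3KO mice more members were called at 4 °C than in WT. With TMM scaling 69 of 81 members were called higher and 0 lower, against 31% and 32.1% of all tested genes, and the median log2 fold change was 0.50, against −0.06 for all genes. In 69 members the libraries did not overlap, as in 30.9% of all genes. With upper-quartile scaling 39 were higher and 0 lower (79 of 81 positive), and with library totals 14 were higher and 0 lower (56 of 81 positive). The median of all tested genes was −0.29 and −0.45 under these. All-gene calls were then 23.4% higher and 41.0% lower, and 18.7% and 46.4%, so that here too the members' share called with library totals was not above that of all genes. The largest called differences after Rps6 were Rpl34 at 0.86, Rpl13a at 0.83, Rps10 and Rps15a at 0.80, Rps13 and Rpl10 at 0.79 and Rpl4 at 0.78.

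Leaving out the 5 libraries with muscle markers changed this count in AdC3KO more than in WT. Without them, an alternative chosen after the data were seen, 50 of 82 tested members were higher and 0 lower in WT, with a median of 0.44, and 24.4% of all genes were called higher. In AdC3KO, 18 of 82 were higher and 0 lower, with a median of 0.33, and 19.5% of all genes were called higher. That fit leaves AdC3KO at 30 °C with 1 library, assumed to vary like the other groups. AdC3KO at 30 °C replicate 1, one of the libraries left out, held the lowest ribosomal protein levels of its group, and AdC3KO at 4 °C replicate 3 the highest. Their part in the larger count was not tested.

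The genotypes shared 54 called members, all those called in WT. A further 15 passed in AdC3KO alone, among them Rpl11, Rpl21, Rpl22, Rpl31, Rpl35, Rpl35a, Rpl36, Rpl38, Rpl41, Rps10, Rps20 and Rps23. That is not a difference between genotypes. The interaction of genotype and temperature was called for 0 of 81 members by edgeR, 0 at an unadjusted p under 0.05 and 0 by DESeq2. Of all tested genes, edgeR called 0%, and 2.19% had an unadjusted p under 0.05. The median interaction was 0.07 on the log2 scale with TMM, with a typical SE of 0.17, and −0.14 without the libraries with muscle markers. The smallest p values were those of Rpl3l (2.25, SE 1.25) and Rps10 (0.61, SE 0.41), each with an adjusted p above 0.999 and both under 4 CPM in every library.

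The order of the cold differences was alike in the genotypes, which share no library in these comparisons. Over the 76 members at 10 CPM or more in WT at 30 °C, Spearman's rho between the WT and AdC3KO log2 fold changes was 0.945, and over all 81 tested members 0.847. Over the 15868 other tested genes it was 0.924. These are descriptions across genes, which are not independent.

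**Figure D3:**
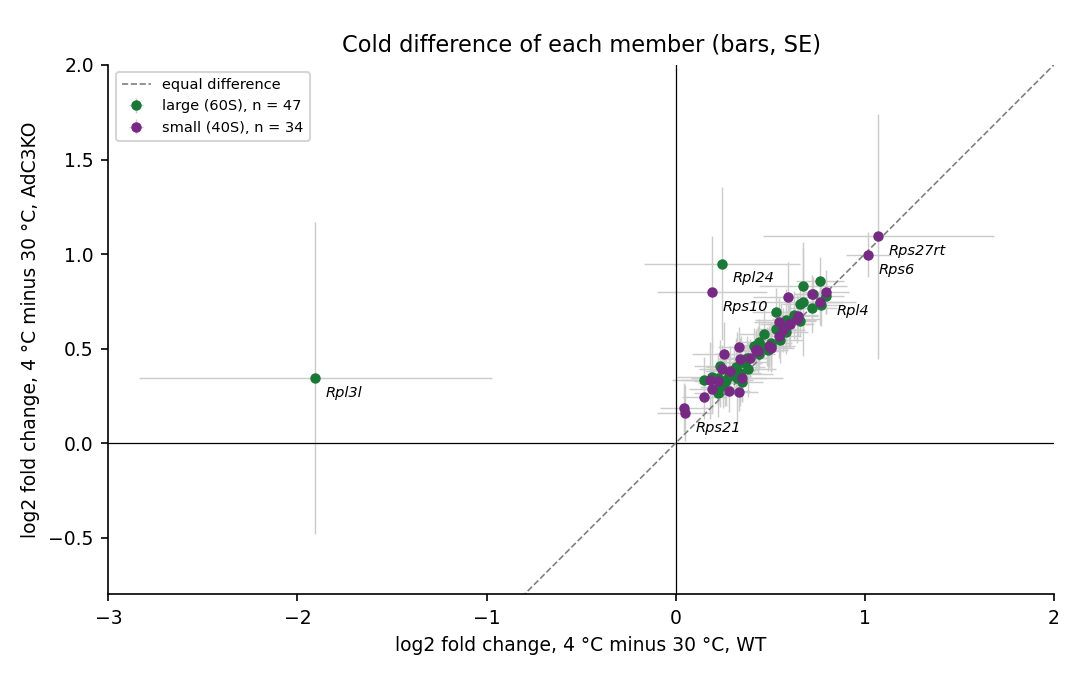
Log2 fold change between 4 °C and 30 °C in WT (horizontal axis) against AdC3KO (vertical axis) for the 47 large-subunit (green) and 34 small-subunit (purple) members tested, with SE bars and a dashed line of equal difference. Most points lie along the line between 0 and 1, with Rps6 at 1.02 and 0.996, and the points far from it, such as Rpl3l, are scarce transcripts with wide bars.

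Without cold, the genotypes did not differ detectably in these genes. At 30 °C, edgeR called 0 of 81 members, 0 had an unadjusted p under 0.05, and DESeq2 called 0. Of all tested genes, edgeR called 0.0439%, and 1.33% had an unadjusted p under 0.05. The members' median log2 fold change between AdC3KO and WT was 0.04, with a median SE of 0.13, against a median of 0.01 for all genes. Of the 81 members, 80 lay within 0.5 of 0, as did 91.3% of all genes. The smallest p values were those of Rps26 (113, 124 and 122 CPM in WT, 123, 141 and 139 CPM in AdC3KO, overlapping, log2 fold change 0.17, SE 0.10) and Rps10 (−0.47, SE 0.31), both with an adjusted p of 1. Of the tested members, Rps27rt alone had libraries that did not overlap, all 3 AdC3KO libraries being lower at 0.36 to 0.45 CPM, where 3.28% of all genes separated in that direction.

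At 4 °C the result was similar. EdgeR called 0 of 81 members, 1 had an unadjusted p under 0.05 (Rpl3l), and DESeq2 called 0. Of all tested genes, edgeR called 0.0502%, and 4.80% had an unadjusted p under 0.05. The members' median was 0.10 with a median SE of 0.11, against −0.01 for all genes. Of the 81 members, 78 were positive, against 48.5% of all genes, but members move together between libraries. No member's libraries separated, as they did in 2.27% of all genes. Rpl3l had a log2 fold change of 2.03 (SE 0.89, adjusted p = 0.963), with the 1 AdC3KO library rich in muscle markers far above the rest.

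**Figure D4:**
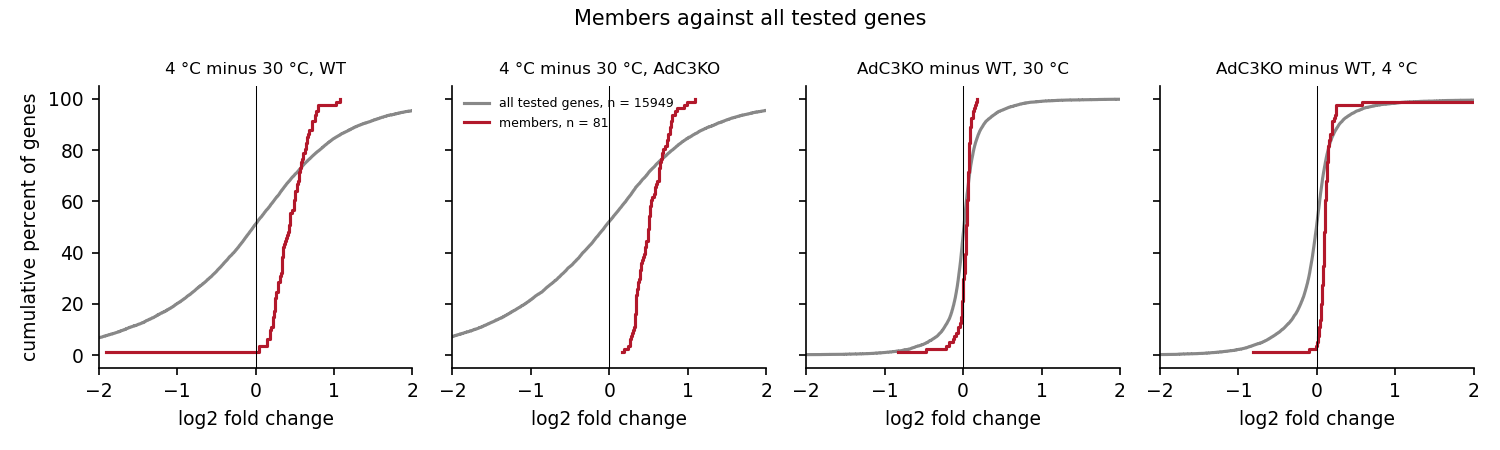
Cumulative percent of genes (vertical axis) against log2 fold change (horizontal axis) for the 81 tested members (red) and all 15949 tested genes (grey) in the 4 comparisons. In both cold comparisons the red curve is steep and to the right of 0, with medians of 0.42 and 0.50, and in both genotype comparisons it rises close to 0, with medians of 0.04 and 0.10.

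Within a group, ribosomal protein transcripts shifted up or down as a block. Of 81 members, 78 were above their group mean in WT at 30 °C replicate 2, in AdC3KO at 30 °C replicate 2, in WT at 4 °C replicate 1 and in AdC3KO at 4 °C replicate 3. Only 2 were above it in WT at 30 °C replicate 1, AdC3KO at 30 °C replicate 1 and WT at 4 °C replicate 3. The median member deviated from its group mean by −0.22 to 0.19 on the log2 scale. The median of all genes deviated by −0.01 to 0.01, but TMM scaling itself holds most genes near 0. Whether other gene sets shift in the same way was not tested. Summed brown adipocyte markers followed the shifts of the members in some libraries and not in others. They were highest of their groups in WT at 4 °C replicate 1 (32779 CPM), AdC3KO at 4 °C replicate 3 (32628 CPM) and WT at 30 °C replicate 2, and lowest in both 30 °C replicates 1. AdC3KO at 30 °C replicate 2 (11143 CPM) was not the highest of its group, which was replicate 3 (13170 CPM), and WT at 4 °C replicate 3 (26326 CPM) was not the lowest, which was replicate 4 (23181 CPM). Their part in the shifts was not tested.

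Both subunits contributed to the cold calls. In WT 31 of 47 large-subunit and 23 of 34 small-subunit members were called higher, with medians of 0.44 and 0.42. In AdC3KO the counts were 41 of 47 and 28 of 34, with medians of 0.51 and 0.50.

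Among the members at 10 CPM or more, longer ones tended to have larger cold differences. Over these 76, Spearman's rho between coding length and log2 fold change was 0.379 in WT and 0.301 in AdC3KO, and Pearson's r was 0.386 and 0.302. Over all 81 tested members, scarce ones included, rho was 0.277 and 0.239, and r was −0.004 in WT and 0.193 in AdC3KO, so the relation in WT rests in part on that limit. Over all 7987 protein-coding genes at that level it was 0.052 and 0.022. In WT, the 25 shortest members (138 to 399 bases) had a median of 0.34 and 11 called, the middle 25 had 0.44 and 18 called, and the 26 longest (582 to 1257 bases) had 0.50 and 24 called. In AdC3KO the medians were 0.39, 0.49 and 0.52, with 19, 23 and 25 called. Rpl4 and Rpl3, with 1257 and 1209 coding bases, were among those with larger differences, and Rpl41, the shortest at 138, had 0.31 in WT. The libraries that set these values are shared by all members.

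**Figure D5:**
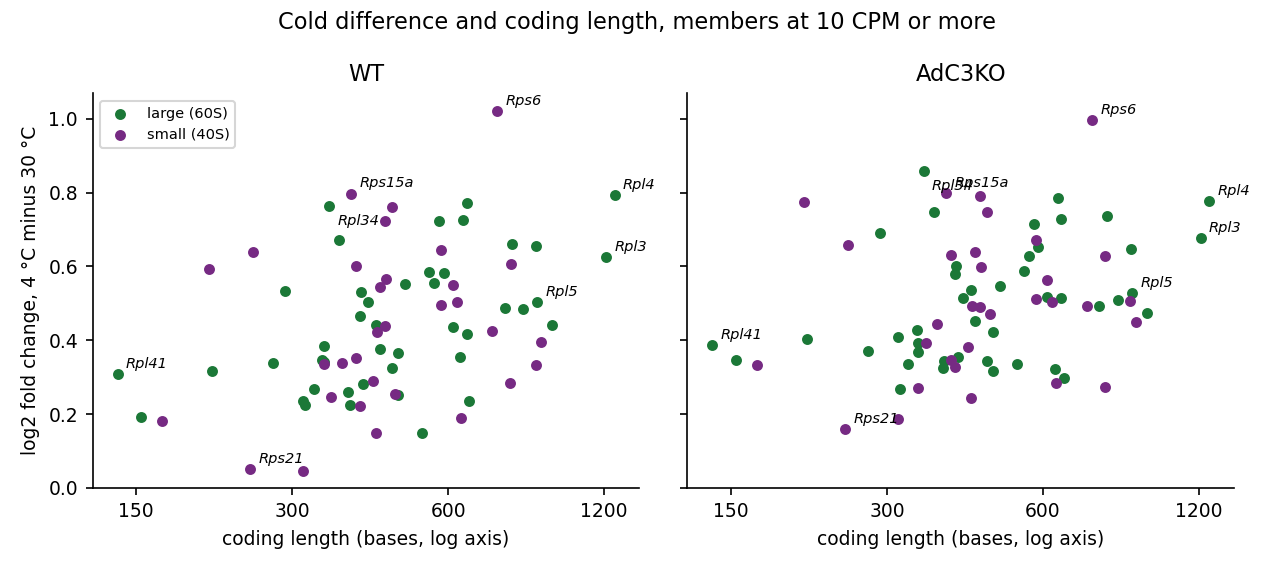
Log2 fold change between 4 °C and 30 °C (vertical axis) against coding length in bases (horizontal log axis) for the 76 members at 10 CPM or more in WT at 30 °C, in WT (left) and AdC3KO (right), coloured by subunit. Points spread widely around a weak upward trend, with rho of 0.379 in WT and 0.301 in AdC3KO.

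Many ribosomal protein genes carry small nucleolar RNA (snoRNA) genes in their introns, which guide the modification of ribosomal RNA. Of the 76 members at 10 CPM or more, the 29 with an annotated snoRNA gene inside had a median cold log2 fold change of 0.47 in WT and 0.51 in AdC3KO, and the 47 without had 0.42 and 0.47. Rpl13a, with 4 snoRNA genes inside, is under that level and in neither group. A pyrimidine run at the annotated start, as printed for Rps6 and Rps21, was present in members with large and with small differences: the 15 with it had a median of 0.44 in WT and the 46 without it 0.43. In AdC3KO these were 0.60 and 0.51. With the run allowed to begin within 5 bases of the start, the 30 members with it had medians of 0.43 in WT and 0.53 in AdC3KO. The 31 without it had 0.44 and 0.51. The 32 members with TGACG near the start had medians of 0.52 in WT and 0.57 in AdC3KO, against 0.32 and 0.45 for the 29 without it. For CCGGAAG the order was the opposite, with medians of 0.38 and 0.51 for the 25 members that hold it and 0.50 and 0.54 for the 36 without it. Members with GGGCGG or TATAAA also had lower medians than those without, in both genotypes. These splits were made without a test, and a match of letters is not a binding site.

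Per kilobase of mRNA, the members covered a narrow range apart from a few scarce ones. In WT at 30 °C the median level was 215 RPKM (TMM-scaled CPM per kilobase, over the shortest principal coding transcript). The highest were Rplp2 at 598 ± 113 RPKM, Rps2 at 510.3 ± 38.3, Rpl41 at 510.2 ± 59.6, Rplp1 at 506 ± 66.4, Rps14 at 452 ± 61.2 and Rps15 at 431 ± 47.2 (SD, n = 3). Neighbours in this order do not differ beyond their spread. The order depends on the transcript length used: with the union of all exons, Spearman's rho with these levels over 81 members was 0.692. At 4 °C the median level was 305 RPKM in WT.

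Several of the scarcest members overlap exons of other annotated genes, while Rpl10l, Rps27rt and Rpl3l overlap none. This is overlap of position in the genome, not likeness of sequence. Reads of Rps27rt, a copy of Rps27, may also align to Rps27, and how multiply aligned reads were treated is not known. Of the 83, 8 were under 15 CPM in WT at 30 °C, and 5 of these have 50% or more of their coding bases inside exons of another gene: Rpl36al (95.28%, within Gm49383), Rpl13a (90.27%, Gm45713), Rpl24 (83.44%, Gm28037), Rps10 (80.14%, RPS10-NUDT3) and Rpl23a (55.34%, Tlcd1 on the opposite strand). No member above 15 CPM overlaps that much, and 73 members have no coding base inside exons of another gene. Reads that fall on more than 1 gene were set aside in the authors' counting, and amounted to 5.53% to 6.03% of a library. Rpl13a measured 2.61, 3.79 and 2.04 CPM in WT at 30 °C and 3.12, 5.35, 4.99 and 4.48 CPM at 4 °C, which overlap. The levels of these 5 members are uncertain for that reason, including the calls for Rpl13a in both genotypes (0.68, SE 0.23, adjusted p = 0.019 in WT) and Rps10 in AdC3KO. For Rpl23a this depends on the strand setting of the counting, which is not known.

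Genes that build the ribosome had larger median differences in the cold. Of 51 ribosome biogenesis genes, 47 were higher and 1 lower in WT, with a median log2 fold change of 1.38, and 48 and 1 in AdC3KO, with a median of 1.42. Their summed level ranged from 1225 to 1365 CPM in the 30 °C libraries and from 3093 to 3986 CPM in the 4 °C libraries. With library totals 43 were still called higher in each genotype. Rrp12, needed for export of ribosomal precursors, rose from 11.6 to 95.7 CPM in WT (3.04, SE 0.16) and Gnl3, the nucleolar GTPase nucleostemin, from 21.9 to 137 CPM (2.64, SE 0.11). Nop10, a part of the pseudouridylation complex, fell by 0.32 (SE 0.12) in WT, and Dkc1, its catalytic partner, fell by 0.48 (SE 0.16) in AdC3KO.

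Translation factors were also mostly higher. Of 30 initiation factors, 28 were higher and 0 lower in each genotype, with medians of 0.87 and 0.87. With library totals the counts were 24 higher and 2 lower in WT and 24 and 1 in AdC3KO. Eif1a, which helps scan for the start codon, rose by 2.65 (SE 0.13) and Eif2b3, a subunit of the exchange factor for eIF2, by 1.91 (SE 0.14) in WT. One initiation factor differed by genotype: the helicase gene Eif4a2 stood at 360 ± 24.5 CPM (WT) and 554 ± 23.4 CPM (AdC3KO) without cold (SD, n = 3), and at 645 ± 45.5 and 987 ± 65.5 CPM after it (SD, n = 4). It was 1.54-fold (adjusted p = 0.0217) and 1.53-fold (adjusted p = 0.00446) higher in AdC3KO. Whether the loss of Clstn3b or the driver of the deletion, which is not known here, underlies this difference was not tested. Of 17 elongation factors and other TOP genes, 14 were higher and 1 lower in each genotype, with medians of 0.64 and 0.65. With library totals these became 10 higher and 2 lower in WT (median 0.28) and 8 and 2 in AdC3KO (0.26). Hnrnpa1 rose by 0.99 (SE 0.18) and Naca, which binds nascent chains, by 0.91 (SE 0.11) in WT, and Vim, a filament protein whose mRNA carries a TOP tract, fell by 0.67 (SE 0.22).

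Of the paralogues and partners that the rule leaves out, 3 of 5 were higher and 0 lower in each genotype. Rpl22l1 rose from 2.72 to 9.34 CPM in WT (1.78, SE 0.23) and Rpl7l1 from 40.2 to 114 CPM (1.51, SE 0.08), and both rises were larger than any called member's. Rack1, a scaffold on the small subunit, rose by 0.77 (SE 0.09). Of 10 tested snoRNA host transcripts without a ribosomal protein, 7 were higher in WT and 8 in AdC3KO, and 0 were lower, led by Snhg1 (2.31, SE 0.14) and Snhg15 (2.16, SE 0.21) in WT. With library totals 6 were higher in each genotype.

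The regulators of this system changed in both directions, as did tested genes at large. Of all tested genes, 30.6% were called higher and 30.8% lower in WT, and 31% and 32.1% in AdC3KO. Of 22 mTORC1 and TOP regulators, 13 were higher and 7 lower in each genotype. With library totals 10 were higher and 8 lower in WT, and in AdC3KO the balance turned, to 8 higher and 9 lower. The largest rises in WT were those of Sesn2 (6.40 to 115 CPM, 4.15, SE 0.32) and Ddit4 (17.1 to 90.6 CPM, 2.41, SE 0.48), both known as inhibitors of mTORC1, and the largest falls those of Castor2 (−1.92, SE 0.21) and Sesn1 (−1.31, SE 0.16), also inhibitors. Of 14 genes known to regulate ribosomal protein genes, 5 were higher and 5 lower in WT and 5 and 4 in AdC3KO. Tbpl1 (1.37, SE 0.12) and Myc (1.33, SE 0.24) rose in WT, and Mycl (−2.37, SE 0.41) and Mxd1 (−1.09, SE 0.24) fell. Of 11 p53 target genes, 4 were higher and 3 lower in WT and 4 and 4 in AdC3KO, among them Cdkn1a (26.8 to 533 CPM in WT, 4.31, SE 0.28) and Phlda3 (−2.11, SE 0.18). Sesn1 and Sesn2 are in both lists. With library totals the regulators of ribosomal protein genes had 5 higher and 7 lower in WT and 5 and 5 in AdC3KO. The p53 targets had 3 and 5 in WT and 3 and 4 in AdC3KO. With that scaling 44% of all tested genes were called lower in WT and 46.4% in AdC3KO.

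Ribosomal proteins of mitochondria, which translate the mitochondrial genome, were called in both directions. Of 77 tested, 22 were higher and 18 lower in WT, with a median log2 fold change of 0.06. In AdC3KO 26 were higher and 12 lower, with a median of 0.09. Of all tested genes, 30.6% were called higher and 30.8% lower in WT, and 31% and 32.1% in AdC3KO. With library totals the counts of the mitochondrial set turned to 9 higher and 44 lower in WT and 7 and 44 in AdC3KO. Its medians were then −0.30 and −0.31, and those of all tested genes −0.38 and −0.45. With that scaling 44% of all tested genes were called lower in WT and 46.4% in AdC3KO. Mrps2 rose by 1.24 (SE 0.10) and Mrpl47 by 1.01 (SE 0.12) in WT, while Mrpl49 fell by 0.80 (SE 0.11) and Mrpl2 by 0.65 (SE 0.10). The difference between the cytosolic and mitochondrial sets was not tested. In the marker lists for other cells, macrophage genes had 5 of 8 higher in WT and 3 of 8 in AdC3KO, red blood cell genes 4 of 5 and 5 of 5, lymphocyte genes 3 of 8 and 4 of 8 lower, and dividing cell and muscle genes had 0 called. Endothelial genes had 4 of 6 higher and 2 lower in each genotype, and fibroblast genes 2 higher and 1 lower in WT and 0 and 1 in AdC3KO. With library totals, macrophage genes had 2 higher in WT and 0 in AdC3KO, red blood cell genes 1 and 4, and endothelial genes 3 and 4. Lymphocyte genes then had 4 lower in each genotype, fibroblast genes 1 lower in WT and 4 in AdC3KO, and dividing cell genes 0 and 1. The part of these cells in the ribosomal protein values was not tested.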

How the data were processed

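RNA of BAT was sequenced in 14 libraries prepared by the NEBNext Ultra II RNA method, per the labels' protocols. Per the series' design text, the authors used Trimmomatic and FastQC on the reads, STAR for alignment to GRCm38/mm10 and HTSeq for gene counts. The sources used here do not give the versions, the strand setting or how multiply aligned reads were treated. The deposited values are raw counts. Summary rows that name no gene (no feature, 5.95% to 8.19% of a library, and ambiguous, 5.53% to 6.03%) did not enter library sizes or fits.

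Gene symbols came from the GENCODE annotation of GRCm38, which named 99.57% of gene rows. Counts were filtered with filterByExpr (minimum count 10), scaled by TMM (factors 0.822 to 1.21) and fitted over all 4 groups in edgeR 4.0.16 (R 4.3.3) with the quasi-likelihood test, Benjamini-Hochberg adjustment over 15949 genes and a threshold of 0.05. The script was tested on simulated data. CPM values are TMM-scaled. Levels were compared between genes only as RPKM.

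Named members were the 6 most abundant per kilobase in WT at 30 °C, the 8 with the largest called rise in each cold comparison, every called member or otherwise the 2 with the smallest p in each genotype comparison and the interaction, the paralogue forms and their parents, stalk proteins, fusions, Rps6, Rpl5, Rpl11 and Rpsa, and members that missed the filter. Of each related list, up to 2 called genes with the largest rise and 2 with the largest fall at 5 CPM or more were named. Rack1 was added after its values were seen. Some members that the rule or a count includes are not reported here by name. Members and lists were chosen with earlier results of these data known. Promoter sequences are those of RefSeq for GRCm38.p6.

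Alternatives were other scalings, other filters, DESeq2 1.42.0, fits of only the groups compared, replicate blocks, each library left out, and pseudogene rows added to their parent genes. Library totals without scaling factors, the fit without libraries rich in muscle markers (above 20 CPM) and the transcript length behind RPKM were chosen after the data were seen.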

Additional observations from a re-analysis of the deposited data

Results flagged for a closer look

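Among the named members and their share of gene counts, 9 of 64 groups of 4 libraries held a library far from the other 3, where chance gives about 1 in 20. In AdC3KO at 4 °C, replicate 3 was the highest for Rpl11 (340.0 CPM), Rpl9 (501.5 CPM), Rps26 (187.7 CPM), Rpsa (804.4 CPM) and Rpl3l (2.88 CPM). This library also had the most muscle markers and the highest summed brown adipocyte markers of its group. Rps10 was highest in AdC3KO at 4 °C replicate 4 (3.25 CPM). In WT at 4 °C, replicate 1 was the highest for Rpl3 (541.1 CPM) and Rpl3l (0.47 CPM), and replicate 4 for Rps27rt (3.59 CPM). Because members move together between libraries, these are not separate events.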

How the results depend on the processing

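In all 26 alternatives run, the members' median stood above the median of all genes in both cold comparisons. The gap was 0.29 to 0.51 in WT and 0.35 to 0.61 in AdC3KO. A change of scaling shifts all genes by nearly the same amount, so the alternative scalings could hardly change this gap. In each of the 26, 0 members were called for genotype. The interaction was called for 0 members wherever it was fitted, which leaves out the fit of only the groups compared. Upper-quartile scaling gave 23 members higher in WT (median 0.18) and 39 in AdC3KO (0.27). Library totals gave 14 higher and 2 lower in WT (0.075) and 14 higher in AdC3KO (0.11). There the log2 fold change turned to −0.0017 for Rplp1, −0.018 for Rps26, −0.31 for Rps27l, −0.067 for Rps4x and −0.019 for Rpsa in WT, and to −0.057 for Rpl11, −0.0085 for Rpl41, −0.12 for Rps26 and −0.12 for Rps4x in AdC3KO. A filter at 5 CPM, which tests fewer genes and so changes the scaling factors, gave medians of 0.27 in WT and 0.34 in AdC3KO, with 45 higher in AdC3KO. Fitting only the groups compared called 1 member lower in WT, Rpl3l. Without the libraries rich in muscle markers, 18 were higher in AdC3KO (median 0.33) and the median interaction was −0.14. DESeq2 called 57 and 73 members higher. Leaving out 1 library at a time gave 42 to 62 higher and 0 to 1 lower in WT (medians 0.36 to 0.49) and 48 to 72 higher in AdC3KO (0.43 to 0.55). The cause of these shifts was not tested. Same-numbered libraries did not deviate together (correlations from −0.34 to 0.30 for title numbers), while differently numbered ones reached 0.54. These correlations gave no sign of pairing by number but cannot exclude it. A replicate block by the title number gave 52 and 64 members higher in WT and AdC3KO, and by the description number 43 and 73. Depth limits Rpl3l, Rps27rt, Rpl10l and Rpl36al, whose levels rest on few counts, and counts cannot resolve reads shared with overlapping genes.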
